A study of Mus musculus with 6 samples.

Results

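Molecular chaperones of the heat shock families and their co-chaperones were followed by 3' digital gene expression sequencing in mouse epidermal keratinocytes, with 3 libraries of wild type cells and 3 of the genotype labelled p63 alphaKO. The genes were chosen by name from the 30349 genes listed: the HSP90, HSP70, HSP110, small HSP and HSP60/HSP10 families, the J-domain proteins (Dnaja, Dnajb and Dnajc), the subunits of the chaperonin TRiC (Tcp1 and the Cct genes found in the table), the BAG proteins and the transcription factor Hsf1, leaving out the endoplasmic reticulum genes Hspa5, Hsp90b1, Dnajb9 and Dnajc3. This gave 84 genes. Although the set is meant for the cytosol, 8 of the 84 encode proteins of mitochondria (such as Hspa9, Hspd1 and Hspe1) and 6 encode proteins of the endoplasmic reticulum (such as Hspa13 and Dnajb11). The genes differ further in what they do: Hspb11 belongs to the intraflagellar transport machinery of cilia, and Dnajc6 is auxilin, which uncoats clathrin vesicles.

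Cells came from mice at postnatal day 2 and were kept in culture for 5 to 6 days until confluent, in low calcium (0.05 mM), EGF at 2.5 ng/mL and 4% serum treated with a chelator. The wild type libraries carry the numbers 13, 14 and 15 and the p63 alphaKO libraries 9, 10 and 11. The labels give no strain, no description of the allele, no promoter or Cre, and leave unsaid whether each library is 1 animal, a pool or a repeat culture, so the p-values measure the spread between these libraries, which may be technical.

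Chaperones bind unfolded protein and help it fold, refold or be degraded. HSP70 proteins do so in cycles driven by ATP: a J-domain protein delivers the client and starts hydrolysis, and a nucleotide exchange factor (HSP110 or BAG proteins, among others) resets the cycle. HSP90 acts later on kinases, receptors and transcription factors, TRiC folds actin and tubulin inside a barrel, and small HSPs hold unfolded protein without ATP. Under protein stress HSF1 binds heat shock elements, inverted repeats of GAA, in front of many of these genes. In epidermis, Hspb1 is known as a small HSP of differentiating keratinocytes.

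The promoters of these genes were searched for heat shock elements. In the RefSeq promoter table (GRCm38.p6, 250 bases before to 50 after each start), 67 of the 84 genes were found by symbol. An inverted pair, GAANNTTC or TTCNNGAA, searched on both strands since each is its own reverse complement, stood in 20 of these 67 genes (29.9%), against 17.0% of all 27025 genes in the table. The longer run of 3 units, GAANNTTCNNGAA or TTCNNGAANNTTC, which contains the pair, stood in 4 of the 67 (Hspd1, Hspe1, Dnajb6 and Hsph1; 5.97%), against 0.662% of all genes. A match is a description of the letters, not a measured site. The sequences below are those of the mitochondrial chaperonin pair, of the duplicated inducible HSP70 genes and of Hspb1 and Dnajb6, since the levels given later return to them. Capitals mark the inverted pairs, and each sequence runs 5′ to 3′ on the strand named.
Hspd1 to Hspe1, the 215 bases between the RefSeq starts of the divergent genes, plus strand, chr1:55087933-55088147: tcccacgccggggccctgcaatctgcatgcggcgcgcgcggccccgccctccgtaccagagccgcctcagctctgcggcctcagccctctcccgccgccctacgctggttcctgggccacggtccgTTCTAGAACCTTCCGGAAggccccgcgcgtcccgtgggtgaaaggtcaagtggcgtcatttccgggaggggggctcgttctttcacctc
Hspa1a, 150 bases before the start, minus strand, chr17:34972157-34972306: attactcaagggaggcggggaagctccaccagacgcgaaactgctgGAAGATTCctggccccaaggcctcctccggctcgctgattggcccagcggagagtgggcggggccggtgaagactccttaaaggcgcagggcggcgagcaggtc
Hspa1b, 150 bases before the start, minus strand, chr17:34959239-34959388: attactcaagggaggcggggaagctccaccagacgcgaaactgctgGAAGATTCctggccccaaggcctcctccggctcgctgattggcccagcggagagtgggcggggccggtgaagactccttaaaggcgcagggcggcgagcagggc
Hspb1, 150 bases before the start, plus strand, chr5:135887769-135887918: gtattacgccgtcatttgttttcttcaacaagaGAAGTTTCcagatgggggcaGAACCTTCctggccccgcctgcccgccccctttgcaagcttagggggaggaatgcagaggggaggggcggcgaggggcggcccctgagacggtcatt
Dnajb6, 150 bases before the start, plus strand, chr5:29735748-29735897: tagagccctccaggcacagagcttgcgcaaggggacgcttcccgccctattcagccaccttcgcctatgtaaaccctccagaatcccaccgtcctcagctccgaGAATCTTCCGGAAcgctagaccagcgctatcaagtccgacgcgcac
Hspd1 and Hspe1 share a single run of overlapping pairs between these starts. In GENCODE, Hspd1 reaches position 55088243, past the start of Hspe1 at 55088132, so the annotated genes overlap on opposite strands. The 150 bases shown for Hspa1a and Hspa1b have the same letter at 149 positions.

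A level is given in CPM, the reads of a gene per 1000000 in its library, without division by gene length, so levels of different genes are shares of reads and not amounts of RNA. The libraries held 1699716 to 3215333 reads, fewest in p63 alphaKO replicate 11. A gene listed at 0 could still be present at the level of 3 reads, which is 0.933 CPM at the greatest depth and 1.76 CPM at the least, for counting error only. In these bulk cultures fewer cells of a type and less RNA per cell cannot be told apart. Keratinocyte markers (12 genes) summed to 30952.3 to 35440.2 CPM in wild type against 26025.3 to 36851.6 CPM in p63 alphaKO, sums carried mostly by the basal keratins Krt5 and Krt14. Of these 12, 10 lay below 0 in p63 alphaKO, and the libraries of 3 lay lower without overlap (against 5.09% of all genes). Krt1, a keratin of differentiating cells, was lower past the threshold (185.38, 249.31 and 400.87 CPM in wild type against 74.43, 30.99 and 47.61 CPM in p63 alphaKO, -2.44 in log2, limma adjusted p = 0.00686). Its partner Krt10 (-1.60, limma adjusted p = 0.286) and Krt15 (-2.02, limma adjusted p = 0.299) did not pass. Among markers of other cells, melanocyte markers (10) summed to 311.3 to 831.7 and 233.9 to 1036.7 CPM, fibroblast markers (9) to 28.0 to 69.8 and 14.1 to 72.0 CPM, both overlapping between the genotypes. Skeletal muscle markers (12) summed to 83.6, 90.5 and 720.1 CPM in wild type against 17.4, 30.7 and 80.5 CPM in p63 alphaKO. These sums did not overlap, but the nearest were close (83.6 and 80.5 CPM). All 8 muscle markers tested lay below 0 (median -2.47), and the libraries of 2 of the 8 lay lower without overlap (against 5.09% of all genes). In limma 7 had an unadjusted p under 0.05 (against 3.35% of all genes lower) and 0 passed the threshold. Lum, Postn, Myh3 and Myh8 were listed at 0 in all libraries. Endothelial (5) and immune (6) markers summed to at most 5.3 and 0.9 CPM, and Kdr, Cd207, Cd3e and H2-Aa were listed at 0.

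No chaperone gene passed the test between the genotypes. Of the 84 genes, 68 reached 1 CPM on average and were tested, 6 had a few reads, and 10 were listed at 0 in all libraries. limma on log2(CPM + 1), with Benjamini-Hochberg adjustment over all 11716 genes tested and a threshold of 0.05, called 0 of the 68, where 0.0427% of all genes were called. edgeR and DESeq2 on the recovered reads also called 0. At an unadjusted p under 0.05 there was 1 gene lower in p63 alphaKO (1.47% of 68, against 3.35% of all genes) and 0 higher (against 3.01%). Leaving out p63 alphaKO replicate 11 gave 5 lower genes (7.35%, against 4.19% of all genes in the same fit). Leaving out wild type replicate 13 gave 2 (2.94%, against 2.56%), p63 alphaKO replicate 10 also 2 (against 4.52%), and p63 alphaKO replicate 9 gave 0 (against 2.95%). The median log2 fold change (p63 alphaKO minus wild type) was -0.09 over the 68 genes and 0.01 over all genes, with 28 of the 68 above and 40 below 0. Without p63 alphaKO replicate 11 the median of the chaperone genes was 0.01 and that of all genes 0.04, and without wild type replicate 14 they were -0.03 and 0.01.

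The libraries of the groups separated for few of these genes. All 3 p63 alphaKO libraries lay above all 3 wild type libraries for 1 of 68 genes (1.47%, against 6.45% of all genes), and below them for 2 (2.94%, against 5.09%). With 1 library left out, which makes separation easier, the count of separated genes was 6 when wild type replicate 14 was dropped and 12 when replicate 13 or 15 was. Dropping p63 alphaKO replicate 9 or 10 gave 8, and dropping replicate 11 gave 15. The share among chaperone genes was below that among all genes in each of these 6 settings, for example 22.1% against 25.1% without p63 alphaKO replicate 11.

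The intervals say how large a change these data could hold. For 51 of the 68 genes the 95% interval of the fold change from limma lay within 1 log2 unit, a doubling or halving, on either side of 0, and this held for all 37 genes at 50 CPM or more on average. The widest of those 37 intervals reached 0.66 log2 units to either side of its estimate. For the other 17, none of which reached 50 CPM on average, a doubling or halving lay inside the interval.

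**Figure D1:**
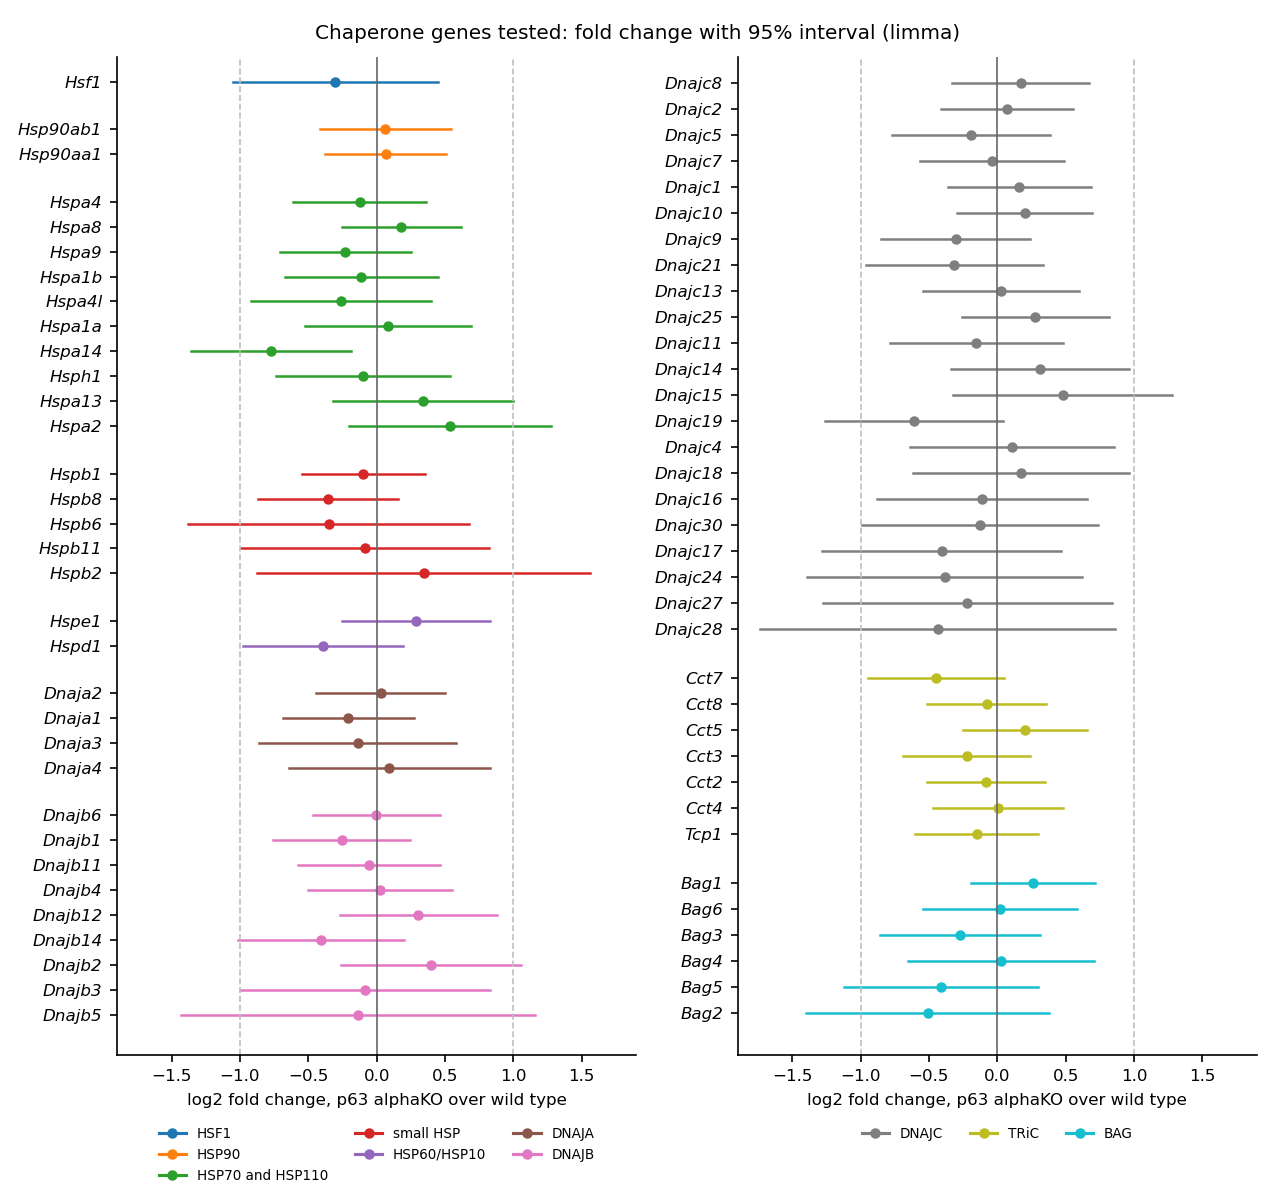
Log2 fold change (p63 alphaKO over wild type, x axis) of the 68 chaperone genes tested, as points with 95% intervals from limma, grouped and coloured by family, with dashed lines at -1 and 1. The interval of Hspa14 is the 1 that does not reach 0, and 51 intervals stay between the dashed lines.

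Hsf1, the regulator, was read at 15.71, 22.07 and 11.44 CPM in wild type against 9.59, 14.33 and 14.69 CPM in p63 alphaKO. The groups overlapped, and the fold change was -0.30 in log2 (limma adjusted p = 0.936, SE 0.36, 3 libraries a group). It rested on 21 to 71 reads per library, and a halving lay within its interval (-1.05 to 0.45).

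HSP90 took the largest share of the reads of these genes. Hsp90ab1, the constitutive cytosolic HSP90, alone made up 30.9% of the summed CPM of the 84 genes. It stood at 4054.76, 4554.06 and 4057.01 CPM in wild type against 4689.39, 4678.74 and 3895.74 CPM in p63 alphaKO. The p63 alphaKO libraries thus held both the highest and the lowest value, and the log2 fold change was 0.06 (95% interval -0.42 to 0.54, limma adjusted p = 0.995). Hsp90aa1, the stress-inducible form, was at 763.51, 900.86 and 778.87 CPM and at 868.56, 962.07 and 734.13 CPM, with a log2 fold change of 0.07 (95% interval -0.38 to 0.51). In both genes p63 alphaKO replicate 11 was the lowest library of the 6.

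Among the HSP70 family, Hspa14 had the lowest p of all 68 genes. Hspa14 (ENSMUSG00000109865.1, GRCm38 chromosome 2, 3488850 to 3512814, minus strand) encodes an HSP70 bound to ribosomes, where it works with the J-domain protein Dnajc2 on newly made chains. It was at 45.56, 55.95 and 60.99 CPM in wild type against 23.75, 32.32 and 38.79 CPM in p63 alphaKO. Every p63 alphaKO library lay below every wild type library. The difference of -0.77 in log2 (SE 0.28, 3 libraries a group) had an unadjusted limma p of 0.0123 and did not pass over all genes (limma adjusted p = 0.716). With 1 library left out it ranged from -0.93 to -0.59, and over all alternatives the adjusted p ranged from 0.286 to 0.999. The libraries of its partner Dnajc2 overlapped, with 205.49, 233.76 and 219.50 CPM in wild type against 259.38, 273.26 and 172.80 CPM in p63 alphaKO (0.07, 95% interval -0.41 to 0.56). Whether the fold changes of the 2 partners differ was not tested.

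Hspa2, best known from sperm development, stood on the other side. It was at 10.68, 7.46 and 11.44 CPM in wild type against 12.33, 15.66 and 15.87 CPM in p63 alphaKO. This was the 1 gene whose p63 alphaKO libraries all lay higher, by 0.54 on the log2 scale (SE 0.35, limma adjusted p = 0.870), on chromosome 12 (76404176 to 76406938, plus strand).

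The housekeeping and inducible HSP70 genes overlapped between the groups. Hspa8, the constitutive cytosolic HSP70, was at 381.13, 344.12 and 394.84 CPM in wild type against 389.07, 470.54 and 412.61 CPM in p63 alphaKO (0.18, 95% interval -0.25 to 0.62). In the last 300 bases of its longest coding transcript, 67.3% of all stretches of 50 bases also occur in transcripts of other genes, so its reads may be shared with copies. Hspa4, an HSP110 protein that resets HSP70, was at 462.50, 579.75 and 486.96 CPM and at 517.85, 564.85 and 345.02 CPM (-0.12, 95% interval -0.61 to 0.36), and its fold change turned to 0.09 without p63 alphaKO replicate 11. Hspa1a and Hspa1b are the inducible HSP70 genes, with the near-identical promoters printed above. Hspa1a was at 71.95, 64.04 and 43.20 CPM in wild type against 85.39, 61.65 and 45.26 CPM in p63 alphaKO. Hspa1b was at 264.87, 205.79 and 153.11 CPM and at 269.88, 157.62 and 155.17 CPM. Both genes fell into the same order within each group, with wild type replicate 15 and p63 alphaKO replicate 11 lowest, and the number of Hspa1b reads per Hspa1a read was 2.56 to 3.68 in all 6 libraries. In the last 300 bases of their longest transcripts no stretch of 50 bases is shared between them, so reads at the 3' end can tell them apart, while reads in the coding part may not.

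For the small HSPs the libraries of the genotypes overlapped in all 5 genes tested. Hspb1 (HSP27 in human), with inverted pairs 117 and 97 bases before its start, was at 1043.78, 950.91 and 744.25 CPM in wild type against 879.06, 833.77 and 819.35 CPM in p63 alphaKO (-0.10, 95% interval -0.55 to 0.35). The part of the lower Krt1 in the values of Hspb1 was not tested. Wild type thus held the highest and the lowest library. Hspb8, which forms a complex with Bag3 that sends damaged protein to autophagy, was at 119.40, 188.38 and 177.25 CPM and at 142.93, 102.31 and 129.31 CPM (-0.36, SE 0.24, limma adjusted p = 0.884). Its partner Bag3 was at 111.54, 119.06 and 75.60 CPM in wild type against 115.99, 82.64 and 58.78 CPM in p63 alphaKO. Hspb6, a small HSP of muscle, was at 10.37, 8.70 and 14.93 CPM and at 21.46, 3.67 and 7.05 CPM (-0.35, and 0.16 without p63 alphaKO replicate 10), so both extremes lay in p63 alphaKO. Hspb7, of heart and skeletal muscle, had 4 reads, all in wild type replicate 15, the library where the 12 muscle markers summed to 720.1 CPM. Hspa12a had 5 reads, also all in that library. Whether muscle RNA gave these reads was not tested.

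The mitochondrial chaperonin Hspd1 (HSP60) and its lid Hspe1 (HSP10) form 1 folding machine from genes that lie back to back on chromosome 1. Hspd1 was at 324.26, 397.59 and 291.92 CPM in wild type against 258.92, 396.23 and 161.64 CPM in p63 alphaKO (-0.39, SE 0.28, limma adjusted p = 0.885). Hspe1 was at 259.53, 254.90 and 348.14 CPM and at 255.27, 321.91 and 512.54 CPM (0.29, SE 0.26, limma adjusted p = 0.917). In p63 alphaKO replicate 11, Hspd1 was at its lowest and Hspe1 at its highest of the 6 libraries. The number of Hspe1 reads per Hspd1 read was 0.641 to 1.19 in the other libraries and 3.17 in that one. Without that library the log2 fold changes were -0.06 for Hspd1 and 0.01 for Hspe1, the ends of their ranges nearest to 0. The longest coding transcripts are 2423 bases for Hspd1 and 774 bases for Hspe1. Of the 50-base stretches at the end of Hspe1, 43.8% also occur in transcripts of other genes.

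**Figure D2:**
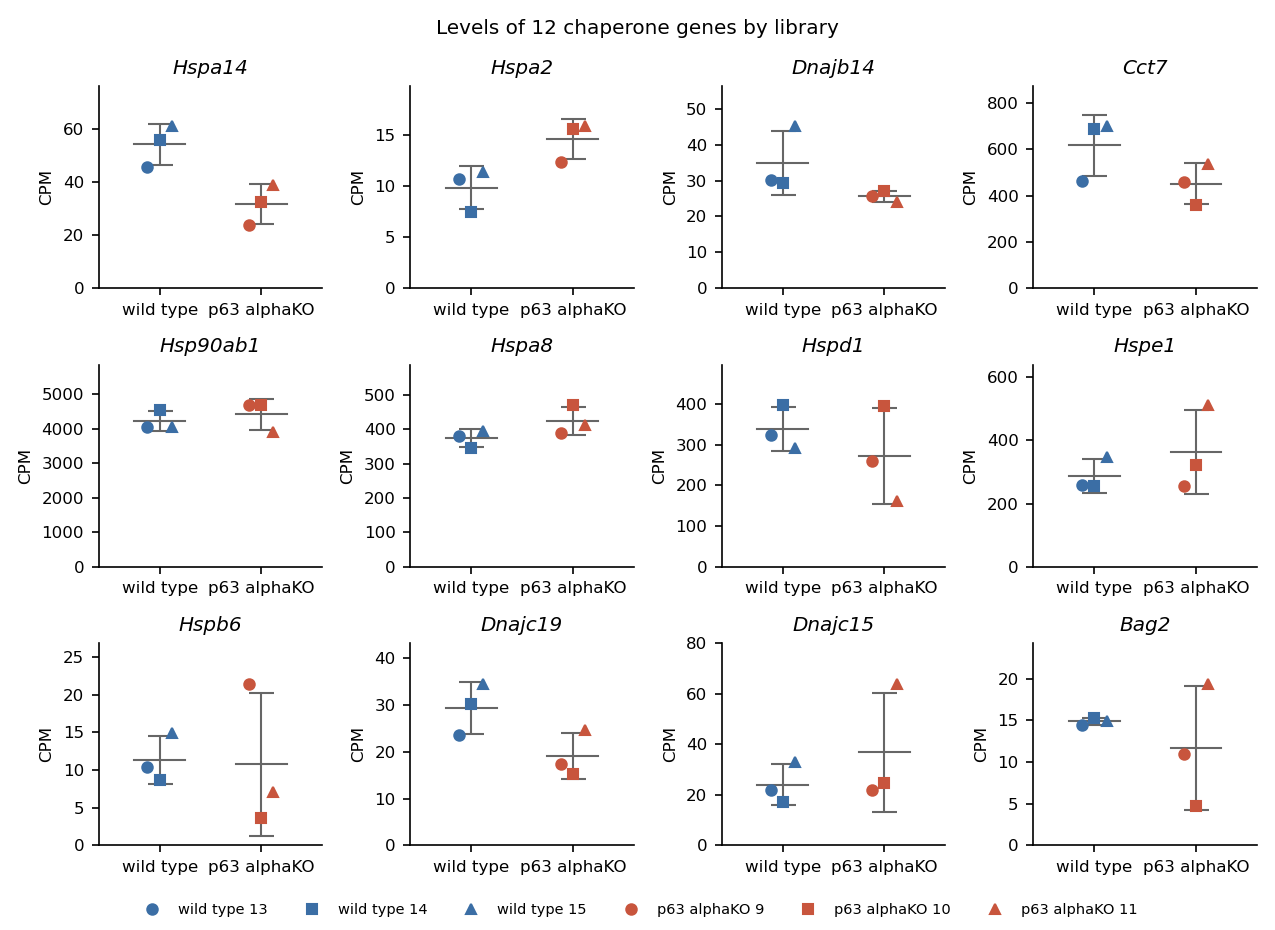
Level in CPM (y axis, from 0) of 12 chaperone genes in the 3 wild type (blue) and 3 p63 alphaKO (red) libraries, with the group mean and SD in grey. Hspa14 and Dnajb14 lie lower and Hspa2 higher in all p63 alphaKO libraries, while p63 alphaKO replicate 11 (red triangle) holds the lowest Hspd1 (161.64) and the highest Hspe1 (512.54) and Dnajc15 (64.07).

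J-domain proteins, the largest family here, give HSP70 its clients. In the Dnaja group (4 tested, 2 above and 2 below 0) Dnaja2 was at 318.91, 265.78 and 245.86 CPM in wild type against 309.61, 321.25 and 222.18 CPM in p63 alphaKO (0.03). Dnaja1, a farnesylated partner of Hspa8, was at 119.08, 118.44 and 98.47 CPM and at 105.49, 98.64 and 86.40 CPM (-0.21, 95% interval -0.69 to 0.27). Dnaja3, a mitochondrial member, stood at -0.14, and at 0.05 without wild type replicate 14.

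In the Dnajb group (9 of 12 tested, 3 above and 6 below 0) Dnajb14 was the 1 whose libraries separated. Dnajb14 (chromosome 3, 137867675 to 137916557, plus strand) sits in the endoplasmic reticulum membrane with its J-domain in the cytosol. It was at 30.16, 29.22 and 45.11 CPM in wild type against 25.57, 26.99 and 24.10 CPM in p63 alphaKO (-0.41, SE 0.29, limma adjusted p = 0.885), and at -0.21 without wild type replicate 15. Its close relative Dnajb12 was at 36.13, 42.59 and 33.35 CPM and at 47.04, 57.32 and 36.44 CPM. Dnajb1, the classic heat-inducible partner of HSP70, was at 70.07, 83.93 and 97.20 CPM and at 70.32, 65.65 and 72.30 CPM (-0.26, 95% interval -0.76 to 0.25), and 2 of the 3 wild type libraries lay above all p63 alphaKO libraries. Dnajb2, known from neurons, was at 19.79, 29.84 and 22.24 CPM and at 42.93, 31.32 and 22.92 CPM (0.40, limma adjusted p = 0.904). Dnajb6, which holds back protein aggregation and carries a 3-unit element in the promoter shown, was at 167.47, 155.43 and 189.00 CPM in wild type against 200.93, 152.29 and 159.87 CPM in p63 alphaKO. Its log2 fold change was -0.003, with a 95% interval of -0.47 to 0.46.

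The Dnajc group holds J-domain proteins of many places and tasks (22 of 27 tested, 10 above and 12 below 0). Dnajc19, of the mitochondrial import motor, was at 23.57, 30.15 and 34.62 CPM in wild type against 17.35, 15.33 and 24.69 CPM in p63 alphaKO, with 1 pair of libraries overlapping (-0.61, SE 0.31, limma adjusted p = 0.794). Dnajc15, related to Dnajc19 and also mitochondrial, was at 21.99, 17.10 and 33.04 CPM and at 21.92, 24.66 and 64.07 CPM (0.48, limma adjusted p = 0.904). Without p63 alphaKO replicate 11 the fold change of Dnajc15 was 0.003. Dnajc8, a splicing-linked member with the most reads of the group, was at 254.82, 275.11 and 434.54 CPM and at 354.36, 303.92 and 403.21 CPM (0.17, 95% interval -0.33 to 0.67). Dnajc28 had 8, 7 and 6 reads in wild type and 1, 14 and 1 in p63 alphaKO, so 1 library held most of the p63 alphaKO reads. Dnajc12, under the level for testing, had 4, 1 and 6 reads in wild type and 1, 0 and 0 in p63 alphaKO. The libraries overlapped (0.31 CPM in wild type replicate 14, 0.46 CPM in p63 alphaKO replicate 9). Pooled over libraries, 11 reads against 1 gave a rate ratio of 7.94 (exact 95% interval 1.15 to 342). The same ratio was 0.722 (0.0967 to 5.39) for Dnajc6 and for Cct6b. These intervals hold counting error only and leave out the spread between libraries.

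TRiC is a ring of 8 different subunits, and 7 of the 9 genes matched here were tested: Cct2, Cct3, Cct4, Cct5, Cct7, Cct8 and Tcp1. The somatic subunit Cct6a was not listed under that name in the deposited data, and the other genes matched are Cct6b and Cct8l1. Of the 7 tested, 5 lay below and 2 above 0 (median -0.08, from -0.45 to 0.20). Cct7 was at 464.07, 689.79 and 699.46 CPM in wild type against 458.03, 358.57 and 537.22 CPM in p63 alphaKO (-0.45, SE 0.24, limma adjusted p = 0.803), and wild type replicate 13 lay among the p63 alphaKO libraries. Cct8 was at 414.43, 507.32 and 517.77 CPM and at 460.77, 451.88 and 444.35 CPM (-0.08), and Cct3 at 347.51, 334.48 and 399.60 CPM and at 269.43, 281.26 and 383.23 CPM (-0.23, SE 0.22). Cct5 stood on the other side, at 320.80, 339.46 and 426.60 CPM in wild type against 394.55, 382.23 and 471.98 CPM in p63 alphaKO. The summed level of the TRiC genes matched, which leaves out Cct6a, was 2299.95, 2732.75 and 2941.1 CPM in wild type against 2340.38, 2255.73 and 2681.41 CPM in p63 alphaKO. Mitosis genes, beside these, had 22 of 22 tested members below 0 (median -0.75, 0 past the threshold). Of the 22, 13 were lower at an unadjusted limma p under 0.05, against 3.35% of all genes. The libraries of 12 lay lower without overlap, against 5.09% of all genes. The sums of the mitosis genes were 1535.5, 1734 and 2668.6 CPM in wild type against 1273.2, 1387.3 and 1122.7 CPM in p63 alphaKO. Every p63 alphaKO sum thus lay below every wild type sum. The part of cell division in the TRiC values was not tested.

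Most BAG proteins bind HSP70 through a shared domain and release its nucleotide. All 6 BAG genes were tested (3 above and 3 below 0, from -0.51 to 0.26). Bag1, which links HSP70 to the proteasome, was at 163.07, 146.41 and 175.34 CPM in wild type against 202.30, 174.62 and 204.54 CPM in p63 alphaKO (0.26, SE 0.21, limma adjusted p = 0.910), with a single wild type library inside the p63 alphaKO range. Bag6, which guards newly made membrane proteins, was at 163.70, 122.79 and 105.46 CPM and at 162.57, 153.96 and 88.75 CPM (0.02). Bag5 was at 15.71, 15.23 and 20.65 CPM and at 16.44, 11.33 and 10.58 CPM (-0.41, SE 0.34). Bag2, an inhibitor of the ubiquitin ligase that works with HSP70, was at 14.45, 15.23 and 14.93 CPM in wild type against 10.96, 4.67 and 19.40 CPM in p63 alphaKO, so the wild type libraries lay close together and the p63 alphaKO libraries on both sides of them.

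As a whole, the chaperone families took a like share of each library. The 84 genes made up 1.36%, 1.48% and 1.38% of all CPM in wild type against 1.44%, 1.44% and 1.29% in p63 alphaKO. The summed level of a family in p63 alphaKO was between 0.903 (small HSP) and 1.05 (HSP90) times that in wild type for the 9 families other than Hsf1 alone. Each of these families overlapped between the groups.

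**Figure D3:**
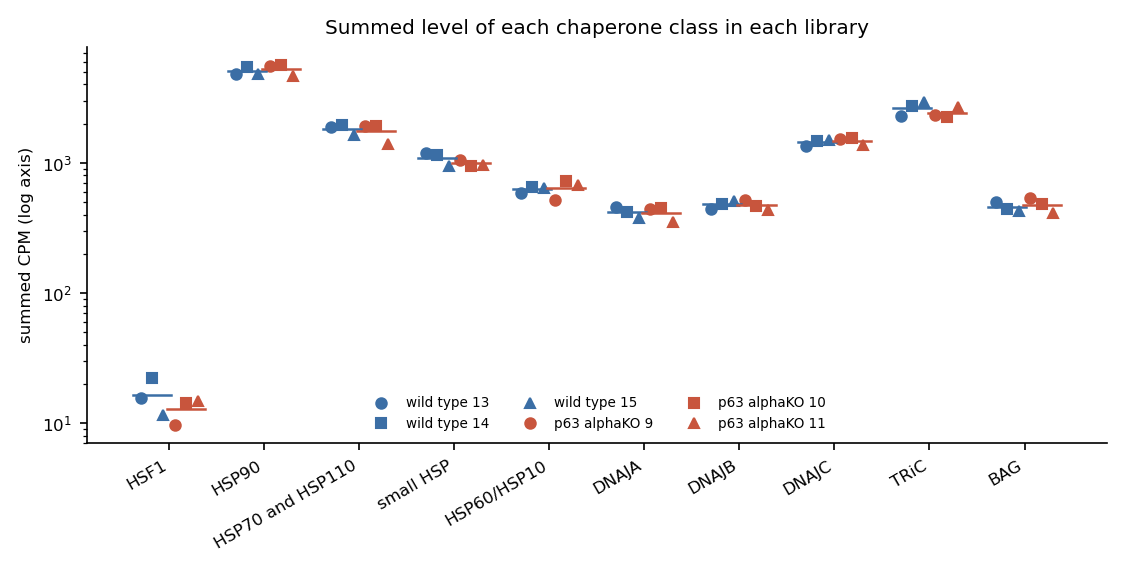
Summed CPM (y axis, log axis) of each chaperone family in each library, with lines at the group means (blue wild type, red p63 alphaKO). The libraries of the 2 genotypes overlap in every family. The lowest library is p63 alphaKO replicate 11 (red triangle) for HSP90 (4629.87) and for HSP70 and HSP110 (1404.18). It is also the lowest for DNAJA (347.96), DNAJB (430.24) and BAG (408.5), but not for Hsf1, small HSP, HSP60/HSP10, DNAJC or TRiC.

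Libraries of the same genotype also differed, and in some of them the difference followed transcript length. p63 alphaKO replicate 11 was the lowest of the 6 libraries for 22 of the 68 genes (32.4%, against 26.3% of all genes) and the highest for 15 (22.1%, against 23.5%). Each library was compared with the mean of the other 2 of its group on the log2(CPM + 1) scale. In p63 alphaKO replicate 11 the median deviation was 0.30 for the 11 chaperone genes whose longest coding transcript is up to 1500 bases, -0.04 for the 31 of 1501 to 3000 bases and -0.45 for the 26 above 3000 bases. All genes gave 0.44, 0.09 and -0.28 in the same classes, so the chaperone genes shared this trend with the table as a whole. Wild type replicate 15 deviated the same way (0.23, 0.15 and -0.20), and p63 alphaKO replicate 10, which is compared with replicate 11 among others, the opposite way (-0.44, 0.00 and 0.31). Across the 68 genes Spearman's rho between length and deviation was -0.45 in p63 alphaKO replicate 11 and -0.31 in wild type replicate 15. It was 0.49 in p63 alphaKO replicate 10 and 0.02 in replicate 9, and 0.30 and 0.15 in wild type replicates 13 and 14. These values are descriptions, since genes of 1 library share its RNA and depth. By this annotated length, Hspe1 (774 bases, 0.84) and Hspa4l (9479 bases, -1.04) followed the trend, while Dnajc15 (6193 bases, 1.42) and Dnajc21 (2060 bases, -1.13) did not. Which transcript of a gene these cells make was not tested, and it may be shorter than the longest one annotated. Whether RNA quality or the preparation of a library moved these values was not tested.

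**Figure D4:**
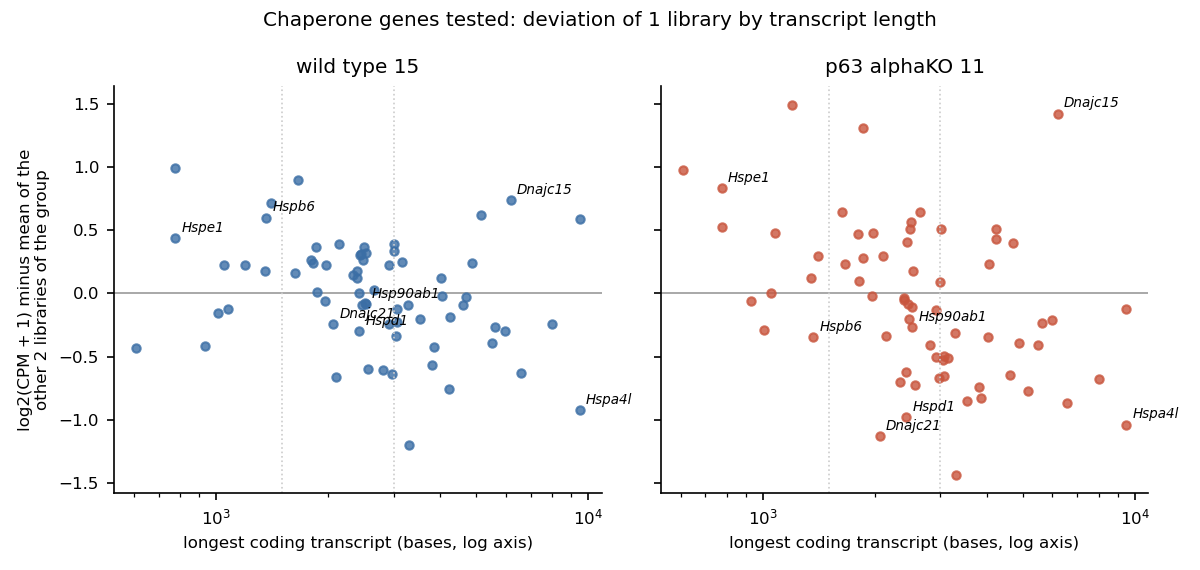
Deviation of wild type replicate 15 (left) and p63 alphaKO replicate 11 (right) from the mean of the other 2 libraries of the group, in log2(CPM + 1) (y axis), against the length of the longest coding transcript in bases (x axis, log axis) for the 68 chaperone genes. Dotted lines mark 1500 and 3000 bases; in p63 alphaKO replicate 11 the median falls from 0.30 in the shortest to -0.45 in the longest class.

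Partners of these chaperones outside the families also had 0 genes past the threshold. Of HSF proteins and HSP70 and HSP90 partners, 0 of 26 tested passed in limma. At an unadjusted limma p under 0.05, 2 of the 26 were higher and 2 lower, where 3.01% of all genes were higher and 3.35% lower. Ppp5c, a phosphatase recruited by HSP90, was at 55.93, 65.90 and 47.96 CPM in wild type against 33.79, 29.33 and 32.33 CPM in p63 alphaKO (-0.80, SE 0.26, limma adjusted p = 0.646). Ttc1 was at 94.89, 88.59 and 82.91 CPM and at 140.65, 100.64 and 186.32 CPM (0.63, limma adjusted p = 0.736). The groups did not overlap for either gene, and both were named for their small p. Among the 26, the libraries of 3 lay higher and those of 1 lower without overlap, against 6.45% and 5.09% of all genes. Of prefoldin and TRiC partners 0 of 12 passed (1 higher at an unadjusted p under 0.05, against 3.01% of all genes). That 1 was Pdrg1, a prefoldin-like protein, at 133.85, 125.90 and 159.78 CPM and at 201.38, 281.59 and 213.36 CPM (0.72, SE 0.23, limma adjusted p = 0.646), with Txndc9 next at 0.19.

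Chaperones of the endoplasmic reticulum, with the 4 genes left out above, had 0 of 13 past the threshold and 0 at an unadjusted p under 0.05 in limma. Hspa5 (BiP) was at 2025.34, 2137.14 and 2062.17 CPM in wild type against 1745.79, 1887.82 and 2438.66 CPM in p63 alphaKO, and Pdia4 (0.34) and Creld2 (-0.36) had the smallest p. Of genes for ubiquitin, the proteasome and protein damage 0 of 12 passed and 0 had an unadjusted p under 0.05, with Sqstm1, an autophagy receptor, at 0.29 and Serpinh1, the collagen chaperone, at -0.23. Early response genes, which handling of cells can raise, had 0 of 18 past the threshold and 16 below 0 (median -0.44). At an unadjusted limma p under 0.05, 3 were lower and 0 higher, against 3.35% and 3.01% of all genes. The libraries of 3 lay lower without overlap and those of 1 higher, against 5.09% and 6.45% of all genes. Their sums overlapped (2198.1 to 2512.4 CPM in wild type, 1961.4 to 2436.7 CPM in p63 alphaKO). Ier3 and Klf4 had the highest levels in these sums (644 and 566 CPM on average).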

How the data were processed

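The authors deposited 1 table of CPM (counts per 1000000 reads), 1 column per library; STAR, HTSeq and mm10 stand in the submitters' processing notes, and the sources used here give no versions, strand setting, annotation or use of molecular identifiers. Dividing by the value of 1 read gave whole numbers for 100% of values above 0 (within 0.1 read), and these recovered reads served edgeR and DESeq2. Over all genes edgeR called 2 and DESeq2 15 on these reads, against 5 by limma on the deposited CPM.

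Genes reaching 1 CPM on average were tested with limma 3.58.1 (R 4.3.3, mean-variance trend) on log2(CPM + 1), two-sided, with Benjamini-Hochberg adjustment. Fold changes are on that scale and understate low genes. All 6 columns were used. Alternatives were other pseudocounts, filters and scalings, no trend, edgeR 4.0.16, DESeq2 1.42.0 and libraries left out. Genes and lists were chosen with earlier results of these data known. Fold changes are given, in each family, for the 2 genes with most reads and the 2 of smallest p, for genes whose libraries did not overlap, and for up to 2 genes per partner list; other genes are given by level. Gene lengths and coordinates are from GENCODE vM21 (GRCm38), and promoters from RefSeq (GRCm38.p6).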

Additional observations from a re-analysis of the deposited data

How the results depend on the processing

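No chaperone gene was called under any alternative run: pseudocounts of 0.5 and 5, no filter, a minimum mean of 5 CPM, TMM or quantile scaling, no trend, edgeR, DESeq2, each library left out, and wild type replicate 15 with p63 alphaKO replicate 11 left out together. Over all genes the number called was 5, and it was 2 with a pseudocount of 0.5, 3 with 5, 1 with no filter, 2 with a minimum of 5 CPM, 0 with no trend, 2 by edgeR, 15 by DESeq2, 2 to 13 with 1 library left out and 48 without both libraries named. The number of chaperone genes whose libraries did not overlap rose from 3 to between 6 and 15 with 1 library left out and to 26 without both (38.2%, against 40.4% of all genes), as fewer libraries overlap less. Leaving out the genes of mitochondria and endoplasmic reticulum, chosen after seeing the data, left 0 of 54 called. Some log2 fold changes of single genes turned sign. Under quantile scaling Dnajb6 was at 0.0077 and Hsp90ab1 at -0.012. Without both libraries Dnajb6 was at 0.12, Hspa4 at 0.063 and Txndc9 at -0.0097. With 1 library left out, Bag6 ranged from -0.13 to 0.30, Dnaja2 from -0.069 to 0.20, Dnaja3 from -0.36 to 0.046, Dnajb6 from -0.12 to 0.075, Dnajc2 from -0.050 to 0.28, Hsp90aa1 from -0.024 to 0.17, Hspa4 from -0.26 to 0.092, Hspb1 from -0.24 to 0.0041, Hspb6 from -0.98 to 0.16 and Txndc9 from -0.010 to 0.32. The cause was not tested. No paired analysis was possible because the groups share no replicate numbers. Depth and 3 libraries a group limit the lower genes most: for 17 of 68 the 95% interval reached a doubling or halving.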

Other observations

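Of the 10 chaperone genes listed at 0 in all libraries, several are known from testis or other tissues: Dnajb7, Dnajb8, Dnajb13, Dnajc5b, Dnajc5g, Hspb9 and Cct8l1, together with Dnajc22, Hspb3 and Hspa12b. Cct6b, the testis form of a TRiC subunit, had 3 reads in each group, Dnajc6 had 3 in each, and Hspa1l had 1 read in p63 alphaKO.

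The 17 tested genes with an inverted pair in the promoter had a median log2 fold change of -0.10, with 6 above and 11 below 0, and the 37 tested genes with a promoter but no pair had a median of -0.11. These are descriptions of the same libraries and were not tested.

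Of the 68 tested genes, 24 overlap an annotated gene on the opposite strand, among them Cct7, Dnajb14, Dnajc19 and Hspb6. Whether the counting used strand is not given in the sources used here, and the part of such neighbours in these values was not tested.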
